A study of Danio rerio with 6 samples.

Results

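A set of germ line genes was followed through kidney marrow, which forms the blood cells of adult zebrafish. They were chosen by symbol, capitals ignored, and each of the 10 symbols matched exactly 1 of the 31484 genes in the count tables. Germ granule genes make up 8 of them, ddx4, dazl, dnd1, piwil1, piwil2, tdrd1, tdrd5 and buc, and dmc1 and sycp1 are meiotic. The study sequenced total RNA from 3 wild type libraries (tet2 wt/wt) and 3 libraries of the genotype tet2 -/-, here called tet2 mutant. All fish were 3 to 5 months old, and the marrow was dispersed by pipetting and strained through a 70 micron mesh, with no cell sort named in the labels. Neither the tet2 allele, the sex of the fish nor the number of fish behind a library is given in the labels. Tet2 is an enzyme that oxidises 5-methylcytosine in DNA, and the comparison asks which transcripts differ with its genotype.

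Germ granules are membraneless bodies of RNA and protein in the cytoplasm of germ cells. They store messenger RNAs, and in them Piwi proteins loaded with small piRNAs silence transposons. In zebrafish such material is laid down in the oocyte and inherited by the embryo, where it marks the cells that will become germ cells. Meiotic genes act instead on chromosomes, during pairing and recombination in spermatocytes and early oocytes. All of these genes are known from ovary and testis, and none of them is a marker of blood cells.

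The libraries held between 41285460 and 49229143 counts, and a floor of 3 counts equals 0.0609 to 0.0727 CPM (counts scaled to library size with TMM factors, the unit of all levels below). Markers of the labelled tissue were abundant: the haemoglobin gene hbaa1 had from 6500 to 12554 CPM, the lysozyme gene lyz from 5275 to 13024 and the leukocyte gene coro1a from 670 to 972. Of 21 blood cell genes tested 8 had a log2 fold change above 0, with a median of -0.11. Among them edgeR called 0, 4 had an unadjusted p under 0.05, all lower in mutants, and DESeq2 called 2. Of all genes edgeR called 0.301%, 11.9% had such a p (6.93% lower in mutants) and DESeq2 called 4.13%. With replicate number as a block 1 was lower, MFAP4 (ENSDARG00000038683) at -1.35 (edgeR, Benjamini-Hochberg adjusted p = 0.0201), as were 0.964% of all genes. The 21 genes come from 16 matched names, as some symbols stand for several genes. Another gene with the symbol MFAP4, ENSDARG00000090557, was at 0.50 in the same fit and did not pass. Egg envelope (zona pellucida) transcripts set libraries apart before any genotype comparison. The 13 listed zona pellucida genes had a summed level of 7.33, 7.785 and 763 CPM in wild type 1, 2 and 3, against 571, 366 and 3380 CPM in tet2 mutant 1, 2 and 3. Wild type 3 thus stood with the mutant libraries, and the fits of the 10 genes, the 2 ratios and the germ cell lists below are given with and without both libraries numbered 3. Leaving them out keeps 2 libraries per genotype and removes the wild type library with many egg envelope transcripts. A genotype difference in such transcripts is therefore partly built into that setting. In such bulk samples, fewer cells of a type and less RNA per cell cannot be told apart.

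All 8 germ granule genes had their 2 highest levels in wild type 3 and tet2 mutant 3, and 6 of the 8, all but piwil1 and piwil2, had their 2 lowest levels in wild type 1 and 2. Of the meiotic genes, sycp1 also had its 2 highest levels in wild type 3 and tet2 mutant 3, but it varied only 1.89-fold over the 6 libraries. The other, dmc1, was lowest in tet2 mutant 3, where 5 of the 8 germ granule genes were highest. None of the 10 genes passed the test for a genotype difference (edgeR's quasi-likelihood test, Benjamini-Hochberg adjusted p from 0.597 to 0.994), where 0.301% of the 21893 genes tested passed. A model with replicate number as a block was used because same-numbered libraries correlated in these same data, while no label pairs them. In it tdrd1 and tdrd5 passed, both higher in mutants, as were 1.17% of all genes, and the other 8 did not pass. The mutant library was above the wild type one of the same number in 3 of 3 pairs for dazl, dnd1, tdrd1, tdrd5 and buc, in 2 for ddx4 and sycp1, in 1 for piwil1 and dmc1, and in 0 for piwil2. The same shares over all genes were not computed, so these pair counts have no background to be read against. In the fit of genotype alone an unadjusted p under 0.05 was reached by 0 of the 10, against 11.9% of all genes. With the replicate block 6 of the 10 reached it, against 3923 of 21893 genes tested. Without both libraries numbered 3, 7 of the 10 did, against 2538 of 21786. In both of these fits they were higher in mutants, apart from piwil2. With the log2 zona pellucida level as a covariate 3 of the 10 did, all lower, against 2375 of 21893. That level itself differed with genotype, as wild type 3 was the only wild type library in the mutant range. DESeq2 called 0 of the 10, with no adjusted p for buc, against 4.13% of all genes. Wild type and mutant libraries overlapped for all 10, while 18.2% of all genes showed no overlap.

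The widest differences belonged to buc (ENSDARG00000096095; GRCz10 chromosome 2, 28199466 to 28203585). Its product Bucky ball organises the Balbiani body, the aggregate of germ plasm in early zebrafish oocytes. In wild type 1, 2 and 3 buc had 0.842, 0.931 and 151 CPM, and in tet2 mutant 1, 2 and 3 it had 41.8, 25.4 and 312 CPM. Both low values were in wild type libraries, but the third wild type library exceeded 2 of the 3 mutant ones, so the genotypes overlapped. Over the 8 germ granule genes, 6 had a highest library at least 10-fold above the lowest, as did 7.29% of all genes, and neither meiotic gene did. For buc the highest library stood 371-fold above the lowest, on 15792 against 37 counts. The means were 50.9 ± 86.6 CPM in wild type and 126 ± 161 in mutants (SD, n = 3), and the log2 fold change was 1.31 with SE 1.94 and a Benjamini-Hochberg adjusted p of 0.824 by edgeR. It was -0.60 without tet2 mutant 3, 0.78 and 0.73 without wild type 1 and 2, 7.16 without wild type 3 (adjusted p = 0.152, edgeR with Benjamini-Hochberg adjustment) and 5.23 without both libraries numbered 3 (adjusted p = 0.00781).

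A like order of libraries, over a smaller range, was seen for dnd1, tdrd1 and tdrd5; the 4 genes were put together after their values were seen. The gene dnd1 (ENSDARG00000022813; GRCz10 chromosome 14, 7091395 to 7102955) encodes an RNA-binding protein that shields germ cell messages from microRNA repression and is needed for germ cell survival in zebrafish embryos. It had 0.387, 0.334 and 8.71 CPM in wild type 1, 2 and 3 and 5.18, 2.51 and 23.8 CPM in tet2 mutant 1, 2 and 3. As for buc, wild type 3 lay between the first pair of mutant libraries and the third. The log2 fold change was 1.74 with SE 1.41 and a Benjamini-Hochberg adjusted p of 0.682 by edgeR.

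The Tudor domain proteins bind methylated Piwi proteins and hold granules together. For tdrd1 (ENSDARG00000007465; GRCz10 chromosome 12, 30230934 to 30244596) the values were 1.12, 1.03 and 12.9 CPM in wild type 1, 2 and 3 and 6.29, 4.19 and 38.8 CPM in tet2 mutant 1, 2 and 3. For tdrd5 (ENSDARG00000071450; GRCz10 chromosome 22, 17235608 to 17254453), known in mouse for transposon silencing in the male germ line, they were 0.182, 0.239 and 3.74 CPM, and 2.17, 1.46 and 15.1 CPM. In both genes every mutant library lay above wild type 1 and 2, and wild type 3 lay above tet2 mutant 1 and 2. Their log2 fold changes were 1.71 (SE 1.26) for tdrd1 and 2.17 (SE 1.40) for tdrd5, with Benjamini-Hochberg adjusted p of 0.652 and 0.606 (edgeR). With the replicate block they were 2.01 (SE 0.23) and 2.602 (SE 0.36), higher in mutants, at Benjamini-Hochberg adjusted p of 0.0231 and 0.0326 (edgeR).

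**Figure D1:**
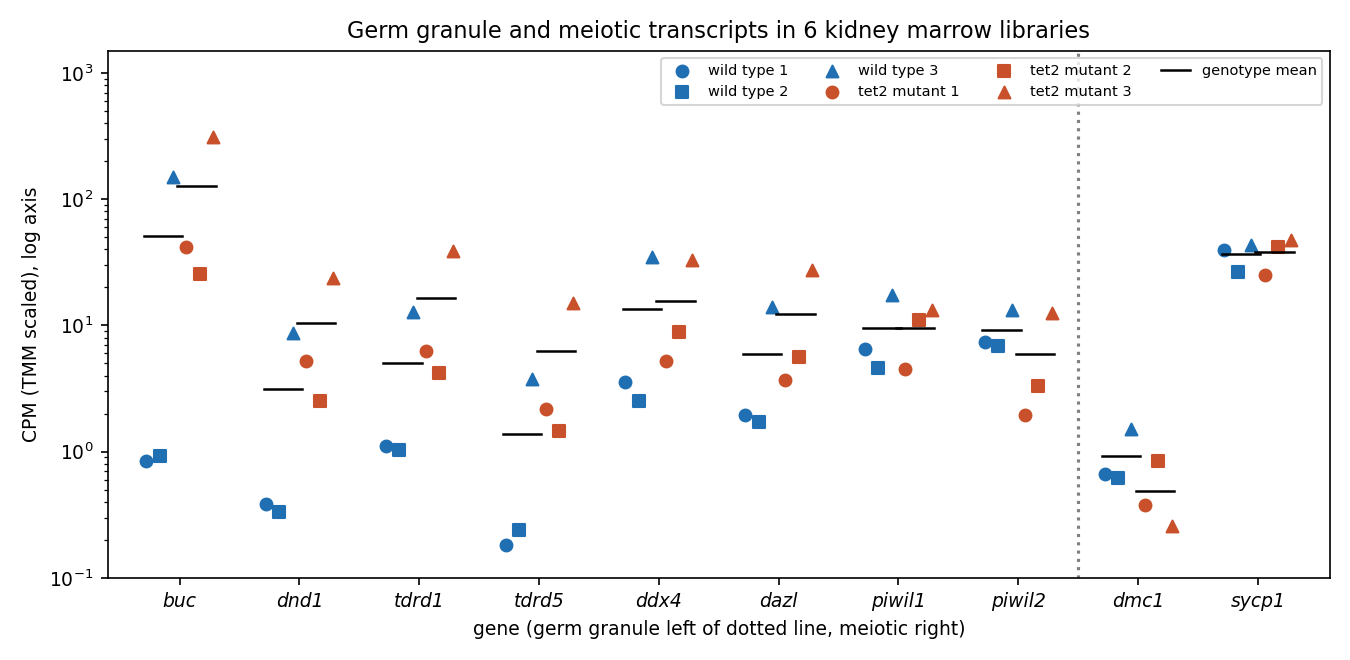
Level of each of the 10 genes in CPM on a log axis, 1 point per library (blue, wild type; orange, tet2 mutant; the shape gives the replicate number), with black lines for genotype means. Wild type 1 and 2 lie lowest for buc, dnd1, tdrd1, tdrd5, ddx4 and dazl, while sycp1 stays between 24.9 and 47.2 CPM in every library.

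The germ cell RNA helicase gene ddx4 (vasa; ENSDARG00000014373; GRCz10 chromosome 10, 6925423 to 6946874) is the classic mark of the germ line. It had 3.57, 2.53 and 34.6 CPM in wild type 1, 2 and 3 and 5.26, 8.83 and 33.1 CPM in tet2 mutant 1, 2 and 3. Both libraries numbered 3 were nearly equal and stood above the other 4. The genotype means were 13.6 ± 18.2 and 15.7 ± 15.2 CPM (SD, n = 3), with a log2 fold change of 0.21 with SE 1.13 and a Benjamini-Hochberg adjusted p of 0.956 by edgeR. Its sign turned without wild type 1 (-0.21), wild type 2 (-0.28) or tet2 mutant 3 (-0.96).

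The gene dazl (ENSDARG00000036214; GRCz10 chromosome 19, 20804781 to 20819548), whose product binds germ cell messages and promotes their translation, was the nearest in profile to ddx4 among the other 9. It had 1.96, 1.72 and 14.04 CPM in wild type 1, 2 and 3 and 3.70, 5.61 and 27.5 CPM in tet2 mutant 1, 2 and 3. Here tet2 mutant 3 stood 1.96-fold above wild type 3, where for ddx4 the same ratio was 0.956. The log2 fold change of dazl was 1.05 with SE 1.07 and a Benjamini-Hochberg adjusted p of 0.742 by edgeR, and -0.36 without tet2 mutant 3.

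The 2 Piwi genes varied least among the germ granule genes. Their products are Argonaute proteins that carry piRNAs, Ziwi from piwil1 and Zili from piwil2. The gene piwil1 (ENSDARG00000041699; GRCz10 chromosome 8, 44231274 to 44305828) had 6.47, 4.56 and 17.3 CPM in wild type 1, 2 and 3 and 4.48, 10.95 and 13.3 CPM in tet2 mutant 1, 2 and 3. Its lowest value was in a mutant library and its highest in a wild type one. Means were 9.45 ± 6.89 and 9.57 ± 4.56 CPM (SD, n = 3), with a log2 fold change of 0.02 with SE 0.60 and a Benjamini-Hochberg adjusted p of 0.994 by edgeR. The gene fzd10 lies on the same strand within its span but shares no exon bases with it.

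For piwil2 (ENSDARG00000062601; GRCz10 chromosome 5, 15927850 to 15971391) the values were 7.40, 6.88 and 13.2 CPM in wild type 1, 2 and 3 and 1.94, 3.29 and 12.6 CPM in tet2 mutant 1, 2 and 3. It was the only germ granule gene of the 8 whose levels in tet2 mutant 1 and 2 were both below wild type 1 and 2. The third libraries of both genotypes were again the highest. Its log2 fold change was -0.62 with SE 0.70 and a Benjamini-Hochberg adjusted p of 0.765 by edgeR, and -1.82 without tet2 mutant 3 (adjusted p = 0.223, edgeR with Benjamini-Hochberg adjustment).

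The meiotic recombinase gene dmc1 (ENSDARG00000055883; GRCz10 chromosome 12, 19234749 to 19240312), whose product pairs a broken DNA strand with the homologous chromosome, had 0.660, 0.621 and 1.503 CPM in wild type 1, 2 and 3 and 0.379, 0.838 and 0.257 CPM in tet2 mutant 1, 2 and 3, on 13 to 68 counts. Wild type 3 was highest, as for ddx4 and both Piwi genes, but tet2 mutant 3 was lowest. The ratio of tet2 mutant 3 to wild type 3 was 0.171 for dmc1, against 0.766 to 4.05 over the 8 germ granule genes. The genotype means were 0.928 ± 0.498 and 0.491 ± 0.306 CPM (SD, n = 3), with a log2 fold change of -0.92 with SE 0.58 and a Benjamini-Hochberg adjusted p of 0.597 by edgeR.

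The gene sycp1 (ENSDARG00000003904; GRCz10 chromosome 6, 49054088 to 49062433) encodes the transverse filament that zips paired chromosomes together in the synaptonemal complex. It had 39.7, 26.4 and 43.6 CPM in wild type 1, 2 and 3 and 24.9, 41.7 and 47.2 CPM in tet2 mutant 1, 2 and 3. Levels in the 2 genotypes overlapped throughout, with means of 36.6 ± 9.01 and 37.9 ± 11.6 CPM (SD, n = 3) and a log2 fold change of 0.05 with SE 0.29 and a Benjamini-Hochberg adjusted p of 0.959 by edgeR. On the opposite strand si:ch211-105j21.9 shares 10 of its 3482 exon bases. That neighbour was lowest in tet2 mutant 2, at 26.4 CPM, where sycp1 had 41.7 CPM. Listed multiciliated cell genes together had 99.9, 74.8 and 102 CPM in wild type 1, 2 and 3, against 49.7, 119 and 82.5 CPM in tet2 mutant 1, 2 and 3. Like sycp1 they were lower in wild type 2 than in the other wild type libraries and lowest in tet2 mutant 1, and their part in the sycp1 levels was not tested. Of the 14 listed multiciliated cell genes 3 had a log2 fold change above 0, with a median of -0.33. By edgeR, at an unadjusted p under 0.05, or by DESeq2 0 were called, against 0.301%, 11.9% and 4.13% of all genes.

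Per kilobase of exon, the scale on which different genes can be set side by side, sycp1 had the highest level in wild type 1 and 2, at 11.4 and 7.59 CPM per kilobase, and in tet2 mutant 2, at 11.97. In wild type 3, tet2 mutant 1 and tet2 mutant 3 the highest was buc, at 57.2, 15.8 and 118 CPM per kilobase. The wild type means fell in the order buc (19.3 ± 32.8), sycp1 (10.5 ± 2.59), ddx4 (4.67 ± 6.27), dazl (2.45 ± 2.92), piwil2 (2.42 ± 0.927), piwil1 (2.34 ± 1.70), dnd1 (1.43 ± 2.198), tdrd1 (1.195 ± 1.63), dmc1 (0.687 ± 0.369) and tdrd5 (0.424 ± 0.623 CPM per kilobase; SD, n = 3). Each neighbouring pair in this order lay within the SD of at least 1 of its members. In the mutants the means fell in the order buc (47.9 ± 61.0), sycp1 (10.9 ± 3.33), ddx4 (5.41 ± 5.21), dazl (5.09 ± 5.48), dnd1 (4.79 ± 5.29), tdrd1 (3.92 ± 4.63), piwil1 (2.37 ± 1.13), tdrd5 (1.91 ± 2.36), piwil2 (1.57 ± 1.53) and dmc1 (0.364 ± 0.227 CPM per kilobase; SD, n = 3). There too each neighbouring pair lay within the SD of at least 1 of its members, apart from sycp1 and ddx4. The rank of piwil2 was 2 in wild type 1 and 2, and between 7 and 9 in the other 4 libraries.

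The ratio of a germ granule gene to a meiotic gene inside 1 library cancels depth. Counts of ddx4 per dmc1 count were 5.41, 4.08 and 23.0 in wild type 1, 2 and 3 and 13.9, 10.5 and 129 in tet2 mutant 1, 2 and 3. The 129 rests on 13 dmc1 counts in tet2 mutant 3, against 68 in wild type 3. In the same 2 libraries ddx4 had 1676 and 1567 counts, so the higher ratio there came from dmc1. The mean log2 ratio was 2.98 ± 1.35 in wild type and 4.70 ± 1.96 in mutants (SD, n = 3). The difference of 1.72, or 3.29-fold, gave p = 0.3 in an exact two-sided permutation test (0.6 after Benjamini-Hochberg adjustment over 2 ratios), whose smallest possible p is 0.1. It was 0.59 without tet2 mutant 3, 2.49 without wild type 3 and 1.36 without both libraries numbered 3. Within same-numbered pairs the mutant library was higher in 3 of 3, by 1.34, 1.37 and 2.44, and an exact two-sided sign-flip permutation over these pairs gave p = 0.25, the smallest it can give.

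Counts of ddx4 per sycp1 count were 0.0901, 0.0958 and 0.794 in wild type 1, 2 and 3 and 0.211, 0.212 and 0.702 in tet2 mutant 1, 2 and 3. Wild type 3 and tet2 mutant 3 lay far above the other libraries of their genotype. The mean log2 ratio was -2.39 ± 1.78 in wild type and -1.66 ± 0.999 in mutants (SD, n = 3), a difference of 0.73 (p = 0.6, exact two-sided permutation test, and 0.6 adjusted over 2 ratios). It was 0.15 without tet2 mutant 3, 0.19 and 0.24 when wild type 1 or 2 was left out, 1.76 when wild type 3 was, and 1.18 without both libraries numbered 3. Within pairs the differences were 1.23, 1.14 and -0.18 (p = 0.5, exact two-sided sign-flip permutation).

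**Figure D2:**
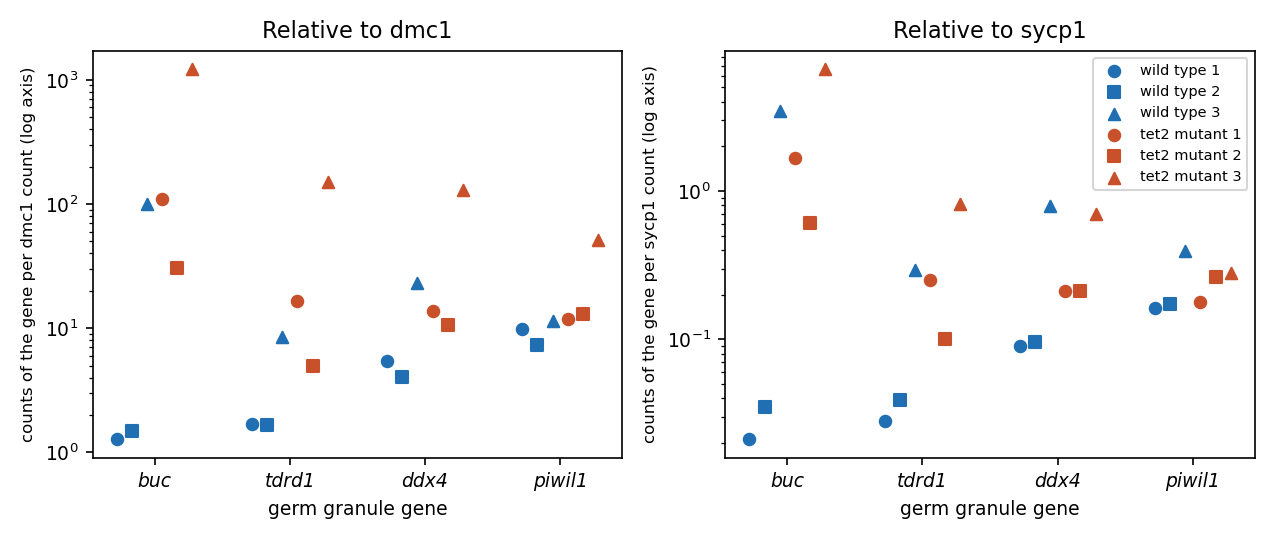
Counts of 4 germ granule genes per count of dmc1 (left) or sycp1 (right) in each library, on log axes. Relative to dmc1, buc ranges from 1.28 in wild type 1 to 1215 in tet2 mutant 3, while piwil1 ranges from 7.35 to 51.7.

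Profiles over the 6 libraries were compared by the root mean square difference of mean-centred log2(CPM + 0.1), a distance in log2 units that is 0 for identical shapes. The distance was 0.25 between tdrd1 and tdrd5, 0.30 between dnd1 and tdrd5, and 0.33 between ddx4 and dazl. The gene piwil1 was closer to sycp1 (0.46) than to piwil2 (0.79), ddx4 (0.84) or buc (2.78). The largest distance of all 45 pairs was 3.39, between buc and dmc1. This distance grows with the range of a gene as well as with a different order of libraries. By it the 8 germ granule genes did not form 1 profile, though wild type 3 and tet2 mutant 3 held the highest levels of each.

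Outside the 10 genes, and among 14485 genes with a descriptive symbol and at least 1 CPM in 2 or more libraries, the 4 closest to ddx4 were zbtb8a, acsl5, cbln1 and nxf1a, at distances of 0.32 to 0.39. The closest to buc were retsatl, avd, larp6b and slbp2 (0.30 to 0.33). The closest to piwil1 were gpr179, ddx19a, stag3 and rp1l1a (0.16 to 0.19). The 3 closest to dmc1 were smc1b, lrrc34 and CARTPT (0.26 to 0.27), and the closest to sycp1 were dync2i2, ift56, kiz and dpcd (0.09 to 0.11).

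Other genes of the germ granule and piRNA pathway numbered 15, and 0 passed in either direction by edgeR, at an unadjusted p under 0.05, or by DESeq2. Of all genes 0.301%, 11.9% and 4.13% did so. All 15 had a log2 fold change above 0, with a median of 0.99, against 51.9% of all genes and a median of 0.01. With the log2 zona pellucida level as a covariate 14 of the 15 were below 0, with a median of -0.70, against a median of -0.0055 over all genes. Without both libraries numbered 3 the median was 1.24 with 11 above 0. There 1 was higher, asz1 at 3.27 (edgeR, Benjamini-Hochberg adjusted p = 0.0405), as were 1.14% of all genes. All 15 were highest in tet2 mutant 3, where 23.3% of all genes were highest. The carbonic anhydrase gene ca15b had 4.74, 5.35 and 99.5 CPM in wild type 1, 2 and 3 and 51.6, 22.1 and 185 CPM in tet2 mutant 1, 2 and 3. The Piwi partner gene gtsf1 had 6.28, 4.04 and 34.35 CPM, and 23.4, 15.4 and 109 CPM, in the same order. The more widely expressed Tudor gene tdrd3 had 34.3 to 37.5 CPM in wild type and 35.6 to 41.3 in mutants, with a log2 fold change of 0.06 (SE 0.11).

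Other meiotic genes behaved less uniformly. Of 28 measured, 27 were tested and 0 passed by edgeR, while 5 had an unadjusted p under 0.05, all lower in mutants, and DESeq2 called 2. Of all genes 0.301% passed by edgeR, 11.9% had such a p (6.93% lower in mutants), and DESeq2 called 4.13%. With the replicate block and without both libraries numbered 3, 0 passed. A log2 fold change above 0 was found for 11 of the 27, with a median of -0.14. In 20 of the 27 tet2 mutant 3 was below wild type 3, as for dmc1, against 50.4% of all genes. The same held for 0 of the 15 other germ granule genes and for 3 of the 8 described above, ddx4, piwil1 and piwil2. The difference between the lists was not tested. The 5 genes, named after their values were seen, were msh5, meiob, mnd1, shoc1 and terb2. The crossover gene msh5 had 1.16, 0.621 and 1.503 CPM in wild type 1, 2 and 3 and 0.210, 0.387 and 0.138 CPM in tet2 mutant 1, 2 and 3, without overlap (log2 fold change -2.15, SE 0.52; edgeR, Benjamini-Hochberg adjusted p = 0.170). By mean over the 6 libraries the most abundant were mnd1, whose product assists Dmc1 in strand exchange, with 27.1 ± 4.51 and 19.8 ± 0.585 CPM, the telomere attachment gene terb1 with 21.3 ± 7.79 and 17.4 ± 3.66 CPM, and psmc3ip, the partner of mnd1, with 8.52 ± 0.998 and 11.3 ± 4.10 CPM (SD, n = 3).

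**Figure D3:**
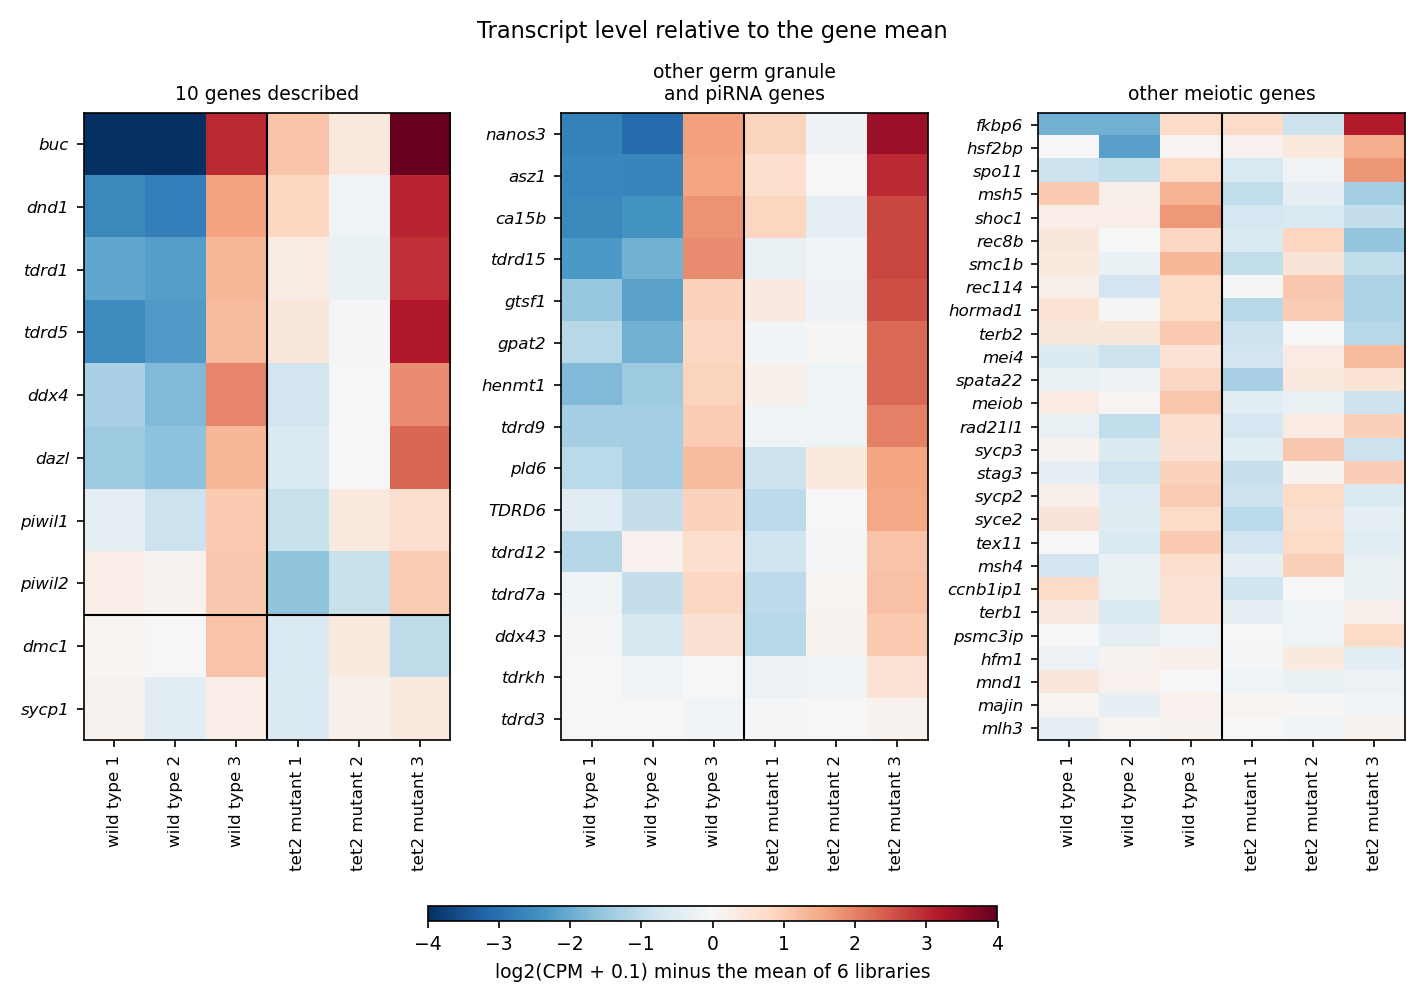
Level of each gene in each library relative to its own mean, as log2(CPM + 0.1) minus the mean of the 6 libraries; the colour scale is cut at -4 and 4. Listed germ granule genes are mostly blue in wild type 1 and 2 and reddest in tet2 mutant 3, whereas many meiotic genes are red in wild type 3 and blue in tet2 mutant 3.

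Oocyte, testis and gonad genes were measured in the same libraries, and their part in the germ granule levels was not tested beyond the covariate. Of 27 oocyte genes 26 had a log2 fold change above 0 (median 2.15) and 26 were highest in tet2 mutant 3, against 51.9% and 23.3% of all genes. These 27 include the 13 zona pellucida genes summed above, so the list partly repeats that result. By edgeR 0 passed. An unadjusted p under 0.05 was reached by 1, against 11.9% of all genes, and DESeq2 called 1, against 4.13%. With the replicate block 4 were higher in mutants, against 1.17% of all genes. They were zpcx (log2 fold change 5.29), zp3f.2 (2.33), zp3d.2 (2.00) and mos (1.99), at Benjamini-Hochberg adjusted p of 0.00866, 0.0324, 0.0324 and 0.0255 by edgeR. Without both libraries numbered 3, 17 of the 27 were higher, against 1.14% of all genes. The summed level of the 27 ran from 20.1 to 1184 CPM in wild type and from 553 to 5026 CPM in mutants, with 0 of the 27 at 0 counts in any library. The egg envelope genes zp3b and zp3a.2 had 49.2 ± 83.2 and 46.8 ± 79.9 CPM in wild type and 244 ± 292 and 242 ± 296 CPM in mutants, and the oocyte linker histone gene h1m had 36.5 ± 62.1 and 251 ± 248 CPM (SD, n = 3). Genes listed for testis germ cells and sperm, 14 in number, had a median of -0.53 with 5 above 0. Whether other cells of the marrow express them was not tested, so their levels cannot be read as testis cells. Of the 14, 10 were lowest in tet2 mutant 1, as were both Piwi genes and sycp1, against 16.9% of all genes. This was not particular to germ cell genes, as 11 of the 14 multiciliated cell genes were lowest there too. Together the 14 testis and sperm genes had 26.8, 31.0 and 47.5 CPM in wild type 1, 2 and 3, against 13.7, 64.1 and 57.3 CPM in tet2 mutant 1, 2 and 3. Few genes made up much of these sums. Of them ldhbb alone had 10.5 CPM in wild type 2 and 28.9 in tet2 mutant 2. In tet2 mutant 3 spata18 had 18.9 CPM and adad1 18.3. By edgeR, at an unadjusted p under 0.05 and by DESeq2 0 passed, against 0.301%, 11.9% and 4.13% of all genes. With the replicate block 1 was higher in mutants, as were 1.17% of all genes. It was adad1, at a log2 fold change of 1.49 (edgeR, Benjamini-Hochberg adjusted p = 0.0439). Without both libraries numbered 3, 0 passed. The level of ldhbb was 4.35 ± 5.33 and 10.1 ± 16.3 CPM in wild type and mutants, that of spata18 2.82 ± 2.03 and 7.60 ± 9.81 CPM and that of adad1 3.02 ± 3.32 and 8.24 ± 8.74 (SD, n = 3).

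Of 14 gonad somatic genes 8 were above 0 (median 0.27). By edgeR and DESeq2 0 passed, against 0.301% and 4.13% of all genes, and 1 had an unadjusted p under 0.05, against 11.9%. The steroid enzyme gene cyp17a1 had 0.797, 0.191 and 8.40 CPM in wild type 1, 2 and 3 and 3.16, 1.68 and 18.8 CPM in tet2 mutant 1, 2 and 3. The testis regulator gene dmrt1 had 2.32, 1.15 and 4.09 CPM, and 0.842, 2.11 and 0.909 CPM, in the same order. Of the 14, 3 were highest in tet2 mutant 3, as cyp17a1 and buc were, against 23.3% of all genes. In wild type 3, 2 were highest, as dmrt1 and dmc1 were. The others were highest in other libraries, such as CYP19A1 in wild type 1, a gene named after its values were seen. CYP19A1 was also the gene with an unadjusted p under 0.05, lower in mutants (log2 fold change -3.79 by edgeR). It had 410 counts in wild type 1 and 6 to 22 in every other library. The gene rspo1 varied little, with 4.64 ± 0.342 CPM in wild type and 4.44 ± 1.34 in mutants (SD, n = 3). Of 10 kidney tubule genes 1 was above 0 (median -0.93), and slc5a12 fell from 45.3 ± 6.64 to 15.6 ± 2.55 CPM (SD, n = 3; log2 fold change -1.54, with a Benjamini-Hochberg adjusted p of 0.0405 by edgeR). Of the 10, 7 had an unadjusted p under 0.05, all lower, against 6.93% of all genes, and DESeq2 called 5, against 4.13%. With the replicate block 5 were lower, against 0.964% of all genes. They were cdh17, cubn, LRP2, slc22a2 and slc5a12, at log2 fold changes of -0.79 to -1.54.

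Relative to zona pellucida transcripts the germ granule genes were not alike. Per 1000 zona pellucida counts tdrd1 had 11.01, 11.5 and 11.5 counts in tet2 mutant 1, 2 and 3, and tdrd5 had 3.79, 3.99 and 4.48. For these genes the mutant libraries differed by 1.04-fold and 1.18-fold, although their zona pellucida level differed between 366 and 3380 CPM. The same measure for piwil1 was 7.85, 29.96 and 3.93, for dmc1 0.663, 2.29 and 0.0760, and for sycp1 43.6, 114 and 13.96. Wild type 3 had 198 counts of buc per 1000 zona pellucida counts, against 73.2, 69.4 and 92.3 in the mutants, and 45.4 of ddx4, against 9.21, 24.1 and 9.80. It exceeded all 3 mutant libraries for 7 of the 8 germ granule genes, the exception being piwil1. All genes of a library are divided by the same zona pellucida total, so these 7 are not separate observations. The share of all genes on this scale was not computed. Wild type 1 and 2, with 322 and 326 zona pellucida counts in all, had 488 and 325 counts of ddx4 and 1009 and 883 of piwil2 on this scale. As 1 wild type library is set against 3 mutant ones, this difference has no test.

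**Figure D4:**
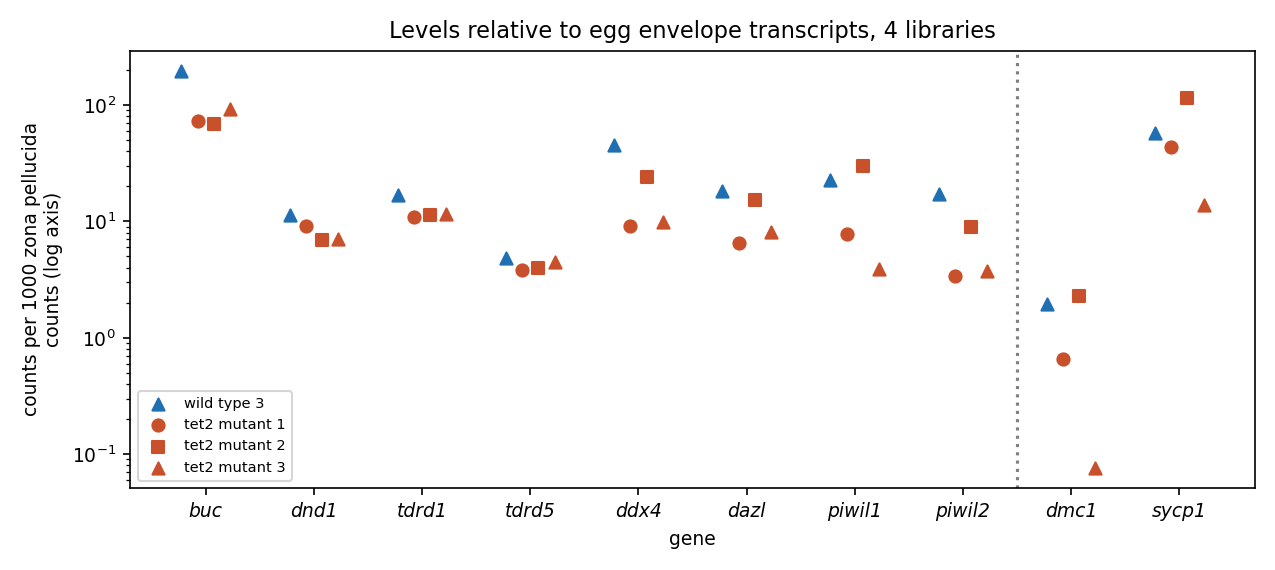
Counts of each gene per 1000 zona pellucida counts, on a log axis, in the 4 libraries with a zona pellucida level of 366 CPM or more (blue, wild type 3; orange, tet2 mutant 1, 2 and 3 by shape). The mutant points for tdrd1 and tdrd5 nearly coincide, those for dmc1 spread 30.1-fold, and wild type 3 is the highest point for buc, ddx4 and dnd1.

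The genotype difference of the germ granule genes depended on which libraries and terms entered the model. Adding the block gave calls for tdrd1 and tdrd5, and among the 15 other germ granule genes for 2, gtsf1 and henmt1. All were higher in mutants, as were 1.17% of all genes. The log2 fold changes of gtsf1 and henmt1 were 1.83 and 1.59, with Benjamini-Hochberg adjusted p of 0.01004 and 0.0421 by edgeR. With both libraries numbered 3 left out, buc was higher (5.23, SE 0.35; edgeR, Benjamini-Hochberg adjusted p = 0.00781), as were 1.14% of all genes. That fit has 2 libraries per genotype. It omits wild type 3, where buc had 151 CPM, against 0.842 and 0.931 CPM in wild type 1 and 2. The call for buc thus rests on leaving out the wild type library in which it was high. In that fit log2 fold changes were 3.39 for dnd1, 2.28 for tdrd1, 3.08 for tdrd5, 1.19 for ddx4 and 1.32 for dazl. They were 0.47 for piwil1 and -1.47 for piwil2. None of these passed (edgeR, Benjamini-Hochberg adjusted p from 0.0611 to 0.817). With the log2 zona pellucida level as a covariate, buc was lower (-1.38, SE 0.14; edgeR, Benjamini-Hochberg adjusted p = 0.0384), as were 0.128% of all genes. All 8 germ granule genes then had a log2 fold change below 0, where 7 of the 8 were above 0 without the covariate. The covariate itself was 7.33 and 7.785 CPM in wild type 1 and 2, 763 in wild type 3 and 366 to 3380 in the mutants. It is thus partly confounded with genotype, and wild type 3 is the only wild type library in the mutant range. The covariate fit leans on that library and cannot separate the 2 terms well. The 2 meiotic genes passed in none of these fits, with log2 fold changes of -0.93, -0.09 and -1.25 for dmc1 and 0.03, -0.002 and -0.28 for sycp1 in the same order.

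**Figure D5:**
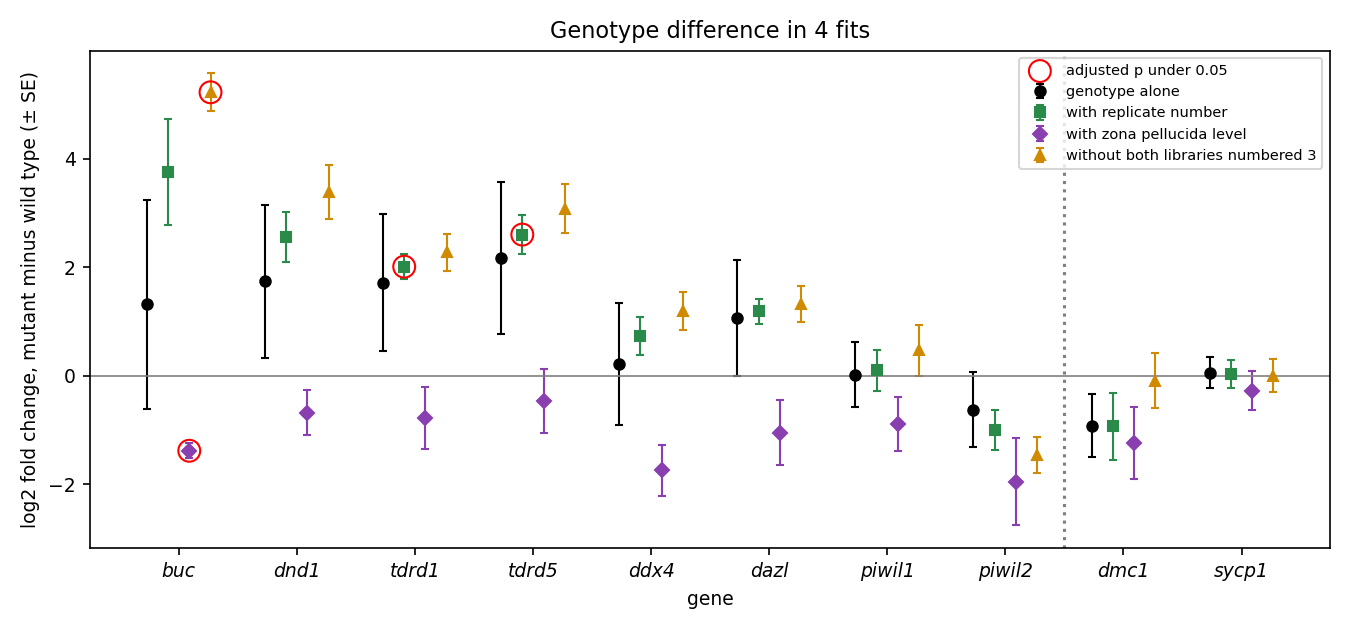
Log2 fold change of each gene (mutant minus wild type, with SE bars) in 4 fits, for genotype alone, with the replicate number, with the zona pellucida level, and without both libraries numbered 3; red circles mark an adjusted p under 0.05. The values for buc run from -1.38 to 5.23, and those for sycp1 from -0.28 to 0.05.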

How the data were processed

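The authors deposited untransformed counts for each Ensembl gene in a table of its own for every library. The submitters' processing notes name Trimmomatic 0.36, STAR 2.5.2b and the build GRCz10. How reads were counted, with what strand setting and what treatment of multiple matches, is not given in the sources used here, so reads of near-identical copies are of uncertain origin. Coordinates are those of the tables. A name table gave symbols for 25752 of 31484 gene IDs (81.8%), printed in the zebrafish spelling of RefSeq (GRCz12tu) where that has the same symbol, and RefSeq synonyms helped to match listed names (147 of 191 in 10 lists). The members and lists were chosen with earlier results of these data known.

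Genes were filtered with filterByExpr (21893 tested, 9591 not; all 10 members passed), scaled by TMM and tested in R 4.3.3 with edgeR 4.0.16 (quasi-likelihood F test, two-sided) at a Benjamini-Hochberg adjusted p under 0.05 over all genes tested. SE is the log2 fold change over the square root of F. Ratios of 2 genes used counts + 0.5 and an exact permutation test over libraries. The edgeR fits, with and without the replicate block, were checked on simulated counts without replicate or zona pellucida effects. That check does not cover a spread between libraries as wide as that of the germ granule genes. Alternatives were DESeq2 1.42.0, RLE size factors, no filter, a replicate block, a zona pellucida covariate and libraries left out. Named genes were the 10 members and genes drawn from the 3 most abundant and any passing genes of each list, and the 4 nearest profiles of 5 members; exceptions are said to be named after their values were seen. The fourth gene of 1 profile comparison is not reported here.

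Replicates carry the numbers 1 to 3 in both genotypes, and no label says what a number stands for. Deviations from the genotype means correlated at r = 0.437, 0.577 and 0.687 for same-numbered libraries, over 17534 genes, and at -0.496 to 0.121 for others. Such deviations cancel out within a genotype, so positive values for same-numbered libraries force the others to be negative on balance. This pairing rests on the data alone, since no label gives it. Libraries of a genotype were not copies of each other. P-values measure the spread between these libraries. With the replicate block and in the sign-flip permutation they measure the spread of differences within same-numbered pairs instead. Floors cover counting error only.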

Additional observations from a re-analysis of the deposited data

How the results depend on the processing

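The number of genes passing in the whole table was 66, and 61 with RLE size factors and 66 without a filter, but 999 with DESeq2, 468 with the replicate block, 38 with the zona pellucida covariate, 312 without both libraries numbered 3, and from 2 to 15 with 1 library left out. The number of the 10 genes passing was 0, and 0 with RLE size factors, with DESeq2, without a filter and with any 1 library left out, but 2 with the replicate block, 1 with the zona pellucida covariate and 1 without both libraries numbered 3. The covariate reversed the log2 fold change of ddx4 (-1.74), dazl (-1.05), dnd1 (-0.68), piwil1 (-0.89), tdrd1 (-0.78), tdrd5 (-0.47), buc (-1.38) and sycp1 (-0.28), and kept the sign of piwil2 and dmc1. Without both libraries numbered 3 sycp1 was at -0.0016. With 1 library left out, values ran from -0.96 to 2.37 for ddx4, -0.36 to 2.74 for dazl, -0.31 to 0.79 for piwil1, -0.60 to 7.16 for buc and -0.15 to 0.28 for sycp1, while dnd1 (0.28 to 4.86), tdrd1 (0.06 to 3.94), tdrd5 (0.38 to 4.88), piwil2 (-1.82 to -0.21) and dmc1 (-1.54 to -0.40) kept their sign. The difference in log2 ratio of ddx4 to dmc1 ran from 0.59 to 2.49, and that of ddx4 to sycp1 from 0.15 to 1.76, and a pseudocount of 1 gave 1.70 and 0.73. Paired and without both libraries numbered 3, settings added after the data were seen, it kept its sign for both. The cause of these shifts was not tested. The lowest counts of a library were 8 for tdrd5, 13 for dmc1 and 14 for dnd1.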
